A study of Mus musculus with 4 samples.

Results

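The Notch pathway genes described here are 3 ligand genes (Jag1, Jag2 and Dll1), 2 receptor genes (Notch1 and Notch2) and 3 effector genes (Hes1, Hey1 and Hey2). These 8 genes, of 21938 protein-coding genes in GENCODE M21, were chosen by name. For each gene, all ATAC-seq peaks were taken that overlapped the gene body or the 50 kb on either side of it by at least 1 bp (the gene window). ATAC-seq marks open chromatin by letting the Tn5 transposase cut it and insert sequencing adapters. The tissue was the posterior fraction of the forelimb buds of E10.5 mouse embryos (35 somites) on a Swiss Webster background. There were 2 libraries from wild-type (WT) embryos and 2 from Shh-/- embryos, which are homozygous for the Shhtm1amc null allele in all cells. Each library came from the pair of posterior forelimb fractions of an individual embryo (5000 cells, amplified for 18 PCR cycles). The comparison asks whether chromatin at these genes is called open in different places with and without the SHH ligand.

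In Notch signaling, a ligand on the surface of a cell binds a receptor on its neighbor. The bound receptor is cut by an ADAM protease and by gamma-secretase, and its intracellular domain moves to the nucleus. There it joins the DNA-binding protein RBPJ and a Mastermind-like coactivator to switch on target genes, of which the Hes and Hey genes encode transcriptional repressors of the bHLH family. In the limb bud, Jag1 is a gene of the posterior mesenchyme, next to the cells that make SHH, and Notch signaling also acts in the forming vessels and in the apical ectodermal ridge.

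The 4 peak lists were very unequal, with 39080 and 11973 peaks for WT replicates 1 and 2 and 5589 and 18459 peaks for Shh-/- replicates 1 and 2. Values of a genotype are given in this order throughout. Peak lists hold no read counts. The study's methods name a single sequencing depth for its ATAC-seq libraries, and the depth that each library reached is not in the files used here. A missing peak was therefore not called rather than shown to be closed. Each peak carries the authors' score, which was used to rank it within its own list and, in an alternative, as a limit of at least 50. The scale of the score is not stated, so whether this limit means the same in each list is not known. The rank is 1 plus the number of peaks with a higher score, and it is also given as a percent of the list length, where a low percent means a high score. Lists were also compared at equal list size, with only the 5589 highest scoring peaks of each. With 2 libraries against 2, the smallest p-value of the exact permutation test is 0.33, so no difference in the number of peaks could pass 0.05. As a check of the tissue, the promoters of 34 marker genes were looked up. Of all protein-coding promoters, 60.8% and 39.5% were called in WT and 17.5% and 51.5% in Shh-/-. Only the limb mesenchyme gene Prrx1 was called in all 4 libraries, with a rank of 85.7% in WT replicate 2. Among the other limb mesenchyme genes, Tbx5 was called in WT replicate 1 only. Prrx2 was called in both WT and no Shh-/- library, beside 1.51% of all promoters. Of 6 limb mesenchyme promoters, 6 and 4 were called in WT and 2 and 4 in Shh-/-. Promoters of 4 posterior limb genes were called less completely, with 3 and 1 in WT and 0 and 2 in Shh-/-. Of 6 endothelial promoters, 2 and 0 were called in WT and 0 and 2 in Shh-/-, and the promoters of Cdh5, Pecam1, Tek and Tie1 were not called in any library. Of 5 muscle progenitor promoters, 3 and 1 were called in WT and 0 and 3 in Shh-/-. The counts were 1 and 0 against 0 and 2 of 6 ectoderm promoters, and 2 and 0 against 0 and 0 of 4 blood promoters. For 3 hindlimb genes they were 3 and 1 against 0 and 2. The hindlimb genes Tbx4, Pitx1 and Isl1 were called in 2, 1 and 3 libraries, beside 1 for Tbx5. The calls at these genes thus do not tell forelimb from hindlimb.

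The sequences on which the calls at these genes turn are shown first, each 5′ to 3′ along the strand of its gene in GRCm38.p6, the assembly of mm10. The promoters of Jag1 and Hey2 were called in all 4 libraries, and that of Notch2 in 3. They come from the RefSeq promoter table, which held 6 of the 8 genes, and are shown up to 30 bases into the GENCODE gene. The Jag1 promoter is the minus strand of chr2:137116615-137116770, the Notch2 promoter the plus strand of chr3:98013288-98013556 and the Hey2 promoter the minus strand of chr10:30842772-30843033. Capitals mark GTGGGAA, the core of the site bound by RBPJ, on either strand.
Jag1 promoter: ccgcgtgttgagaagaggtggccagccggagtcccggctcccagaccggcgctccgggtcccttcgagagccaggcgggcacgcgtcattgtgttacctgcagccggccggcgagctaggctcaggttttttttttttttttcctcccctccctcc
Notch2 promoter: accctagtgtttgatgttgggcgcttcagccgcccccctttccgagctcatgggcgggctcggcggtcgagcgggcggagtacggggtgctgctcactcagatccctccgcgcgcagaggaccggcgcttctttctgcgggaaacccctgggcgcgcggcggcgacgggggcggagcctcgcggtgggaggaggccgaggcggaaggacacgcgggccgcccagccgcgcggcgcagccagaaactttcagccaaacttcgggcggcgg
Hey2 promoter: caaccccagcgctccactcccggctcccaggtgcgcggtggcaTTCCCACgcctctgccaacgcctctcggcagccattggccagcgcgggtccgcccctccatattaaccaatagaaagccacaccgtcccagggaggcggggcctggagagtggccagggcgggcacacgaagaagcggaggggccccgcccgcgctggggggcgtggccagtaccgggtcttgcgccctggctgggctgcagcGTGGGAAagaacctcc

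The other 4 sequences come from regions outside promoters, 200 bases of each, centered on the summit of its highest ranked peak. They are the 2 Jag1 regions called in more than 1 library and the 2 regions just beyond the 3′ end of Hes1. The first lies in the intron after Jag1 exon 2 (minus strand, chr2:137114406-137114605), in the only region of the 8 gene windows called in both WT and no Shh-/- library. The second, which holds part of Jag1 exon 18 and the intron after it (minus strand, chr2:137087957-137088156), is from a region called in both Shh-/- libraries and WT replicate 1. The Hes1 sequences are from intergenic regions (plus strand, chr16:30068183-30068382 and chr16:30069905-30070104) called in 4 and 3 libraries.
Jag1 intron after exon 2: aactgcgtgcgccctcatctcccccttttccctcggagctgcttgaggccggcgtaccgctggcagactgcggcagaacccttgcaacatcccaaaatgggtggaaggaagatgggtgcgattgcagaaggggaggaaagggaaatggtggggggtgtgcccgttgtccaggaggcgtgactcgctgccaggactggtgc
Jag1 exon 18 region: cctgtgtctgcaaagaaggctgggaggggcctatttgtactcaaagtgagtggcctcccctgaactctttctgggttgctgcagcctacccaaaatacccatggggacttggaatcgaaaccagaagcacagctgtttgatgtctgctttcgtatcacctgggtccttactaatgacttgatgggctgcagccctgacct
Hes1 downstream region, near: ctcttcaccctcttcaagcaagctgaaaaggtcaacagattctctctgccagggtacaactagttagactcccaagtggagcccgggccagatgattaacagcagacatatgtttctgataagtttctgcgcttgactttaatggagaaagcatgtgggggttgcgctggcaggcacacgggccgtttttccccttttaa
Hes1 downstream region, far: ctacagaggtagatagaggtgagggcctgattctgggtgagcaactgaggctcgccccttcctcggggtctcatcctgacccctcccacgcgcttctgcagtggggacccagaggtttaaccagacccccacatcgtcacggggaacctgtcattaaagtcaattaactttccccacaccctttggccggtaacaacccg

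The 8 gene windows held 92 and 22 peaks in the WT libraries and 11 and 32 peaks in the Shh-/- libraries. The genotypes overlapped, and the order of the libraries was that of their list lengths. WT windows averaged 57 ± 49.5 peaks (SD, n = 2) and Shh-/- windows 21.5 ± 14.8 peaks (SD, n = 2; exact permutation test, two-sided, p = 0.667). This difference of 35.5 peaks was 0.5 without WT replicate 1 and 70.5 without WT replicate 2. Per 1000 peaks of the list, the windows held 2.35 and 1.84 peaks in WT and 1.97 and 1.73 in Shh-/-. These shares also overlapped, at 2.10 ± 0.365 (SD, n = 2) in WT and 1.85 ± 0.166 (SD, n = 2) in Shh-/- (exact permutation test, two-sided, p = 0.667). Their difference of 0.245 became -0.0134 without WT replicate 1, 0.503 without WT replicate 2 and 0.128 without Shh-/- replicate 2. At equal list size the windows held 8 and 10 peaks in WT and 11 and 10 in Shh-/-, so the direction of the difference turned. A score limit of at least 50 kept 17140 and 5577 peaks of the WT lists and 3983 and 12482 of the Shh-/- lists. With only these peaks, the windows held 36 and 10 peaks in WT and 6 and 18 in Shh-/-. Per 1000 such peaks these were 2.10 and 1.79 in WT and 1.51 and 1.44 in Shh-/-, without overlap (difference 0.472, exact permutation test, two-sided, p = 0.33). How often other sets of gene windows show this at that limit was not computed, so the separation cannot be set against a background.

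**Figure D1:**
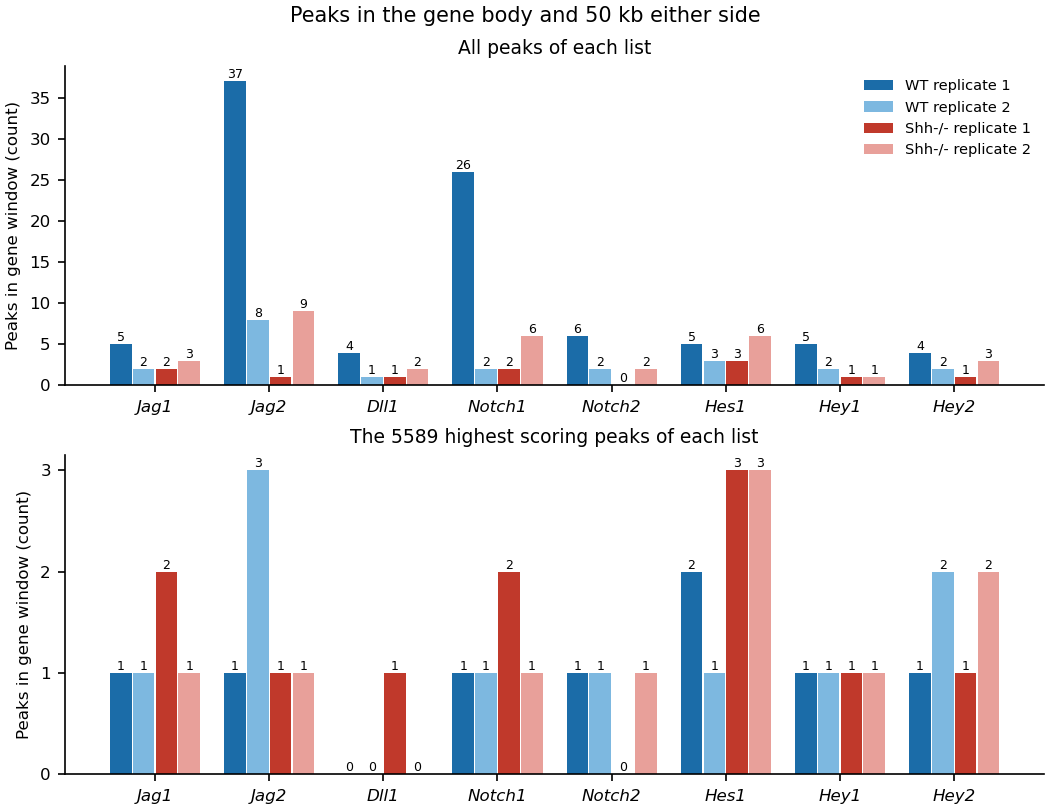
Number of peaks (y axis) in the window of each gene (x axis), as 1 bar per library, for all peaks above and for the 5589 highest scoring peaks of each list below. With all peaks, Jag2 and Notch1 in WT replicate 1 stand out with 37 and 26 peaks, and at equal list size no gene has more than 3 peaks in a library.

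Merged over the 4 lists, these peaks formed 104 of 44692 regions. Of the 104 regions, 77 were called in 1 library, 11 in 2, 9 in 3 and 7 in all 4. WT replicate 1, which had the longest list, alone held 64 of the 77. The share of all regions called in WT replicate 1 only was not computed, here or for the single genes below. The share called in 1 library was 74.0%, beside 64.2% of all regions, and the share called in all 4 was 6.73%, beside 7.97%. A single region was WT-specific (called in both WT and no Shh-/- library), the intron region of Jag1 shown above, and 0 were Shh-specific (the reverse). Among all regions, 2.09% were WT-specific and 0.396% Shh-specific, so 1 of 104 was not above the background. The windows held 15 regions at equal list size. None of these 15 was WT-specific, beside 3.7% of all 9282 regions at that size, and 2 were Shh-specific, beside 3.28%. The 2 Shh-specific regions were those downstream of Hes1.

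**Figure D2:**
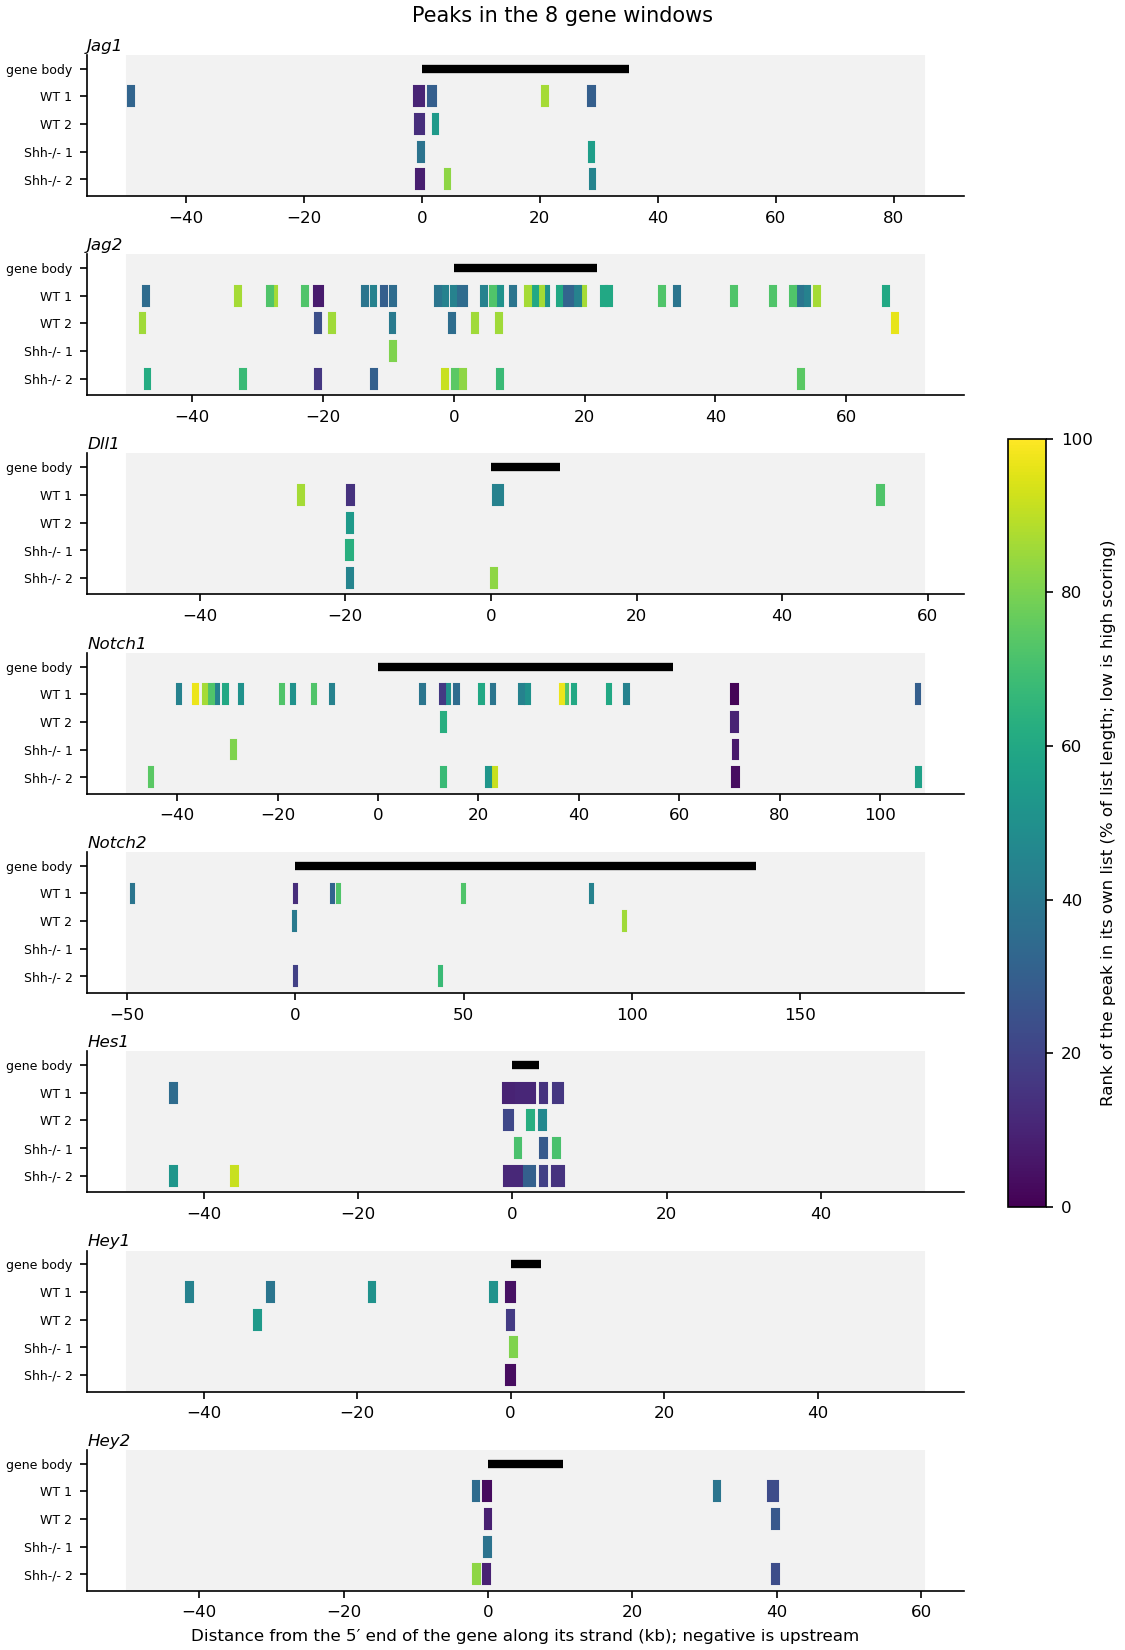
Peaks of each library (rows) in the 8 gene windows, by distance in kb from the 5′ end of the gene along its strand (x axis), colored by the rank of the peak in percent of its list; the black bar is the gene body, grey is the gene window, and peaks narrower than 0.9 kb are drawn 0.9 kb wide. Jag1, Hes1, Hey1 and Hey2 have a promoter peak in all 4 rows, and the rows of WT replicate 1 hold the most peaks at Jag2 and Notch1. Of the 16 regions called in 3 or 4 libraries, 7 are at the gene's own promoter, 3 at a neighboring gene's promoter and 6 elsewhere.

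Jag1 encodes the ligand Jagged 1 and lies on the minus strand of chr2:137081456-137116644. Its promoter was called in all 4 libraries, and here and below a promoter is the span from 2 kb before to 1 kb after a transcription start site (TSS). The promoter peak ranked 3851 and 1545 in WT and 2138 and 1522 in Shh-/-. By these plain ranks, in lists of unequal length, WT replicate 1 was placed lowest and Shh-/- replicate 2 highest. In percent of the list these ranks were 9.85 and 12.9 in WT and 38.3 and 8.25 in Shh-/-. The lowest and the highest percent were both from Shh-/- embryos, on either side of the WT libraries. The mean was 11.4 ± 2.16% (SD, n = 2) in WT and 23.2 ± 21.2% (SD, n = 2) in Shh-/- (exact permutation test, two-sided, p = 1.0). The difference of -11.9 percentage points became 3.13 without Shh-/- replicate 1 and -26.9 without Shh-/- replicate 2. In Shh-/- replicate 1 the score was shared by 280 peaks and the peak was 212 bp wide, while the peaks of the other libraries were 1642 bp and 1552 bp wide in WT and 1380 bp wide in Shh-/- replicate 2. The median width over all peaks was 414 bp and 406 bp in WT and 356 bp and 515 bp in Shh-/-.

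Inside Jag1, beyond the promoter, 2 regions were called in more than 1 library. The WT-specific region, chr2:137114161-137115641, covers part of exon 2 and part of the intron after it, and its end lies just short of the promoter window. The peak of WT replicate 1 ranked 11668 (29.9% of its list), reached into exon 2 and had its summit 2138 bp after the TSS. The peak of WT replicate 2 ranked 6457 (53.9%) and lay wholly in the intron. Neither peak was among the 5589 highest scoring of its list, so at equal list size the region was not called in any library. The second region, chr2:137087262-137088432, reaches from exon 17 to beyond exon 19 of 26. WT replicate 1 had it at rank 11668 (29.9%) and the Shh-/- libraries at ranks 3101 (55.5%) and 8361 (45.3%), and WT replicate 2 did not have it. The peak of WT replicate 1 spanned the whole region, that of Shh-/- replicate 1 lay in the intron after exon 18 and that of Shh-/- replicate 2 reached exon 19. Only the call of Shh-/- replicate 1 was kept at equal list size.

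The whole Jag1 window held 5 and 2 peaks in WT and 2 and 3 in Shh-/-. The genotypes overlapped, with 3.5 ± 2.12 peaks (SD, n = 2) in WT and 2.5 ± 0.707 (SD, n = 2) in Shh-/- (exact permutation test, two-sided, p = 1.0). The difference of 1 peak was -0.5 without WT replicate 1, 2.5 without WT replicate 2 and 0.5 without Shh-/- replicate 1, and it was -0.5 at equal list size. Of the 6 Jag1 regions, 3 were called in 1 library. The best ranked of them was an intergenic peak of WT replicate 1 at chr2:137165735-137166205, upstream of the gene near the edge of the window (32.3%).

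Jag2, which encodes the related ligand Jagged 2, is on the minus strand of chr12:112907819-112929776. Its window held 37 and 8 peaks in WT and 1 and 9 in Shh-/-. The genotypes overlapped. The count of WT replicate 1 was above that of 99.8% of protein-coding gene windows, and the counts of WT replicate 2 and Shh-/- replicate 2 were above 98.2% and 96.7%. Of the 42 Jag2 regions, 28 were called in WT replicate 1 only and 0 in all 4 libraries. The counts were 1 and 3 in WT and 1 and 1 in Shh-/- at equal list size.

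The Jag2 promoter had its best peak at ranks 13699 (35.1%) and 4243 (35.4%) in WT and at rank 13750 (74.5%) in Shh-/- replicate 2. It was not called in Shh-/- replicate 1. The region at the first TSS, chr12:112929536-112930310, was called in those 3 libraries, as was a region in the intron after exon 2 at chr12:112922494-112923016. At the first TSS, the peaks of WT replicate 2 and Shh-/- replicate 2 did not overlap and were joined by that of WT replicate 1. This joining peak of WT replicate 1 ranked 17141 (43.9%). The best promoter peak of that library lay outside the region, at chr12:112927800-112929264. The best ranked region of the window was intergenic, at chr12:112949774-112951128, with ranks of 2881 (7.37%) and 2885 (24.1%) in WT and 3015 (16.3%) in Shh-/- replicate 2. It holds a GTGGGAA match and lies upstream of Jag2, beyond the neighboring gene Nudt14. The only peak of Shh-/- replicate 1 in the Jag2 window was in an intron of Nudt14 (chr12:112939014-112939221), at rank 4510 (80.7%). It fell in a region that reaches an exon of Nudt14 through the wider WT peaks (chr12:112938787-112939453). That region was called in both WT libraries, at ranks 13699 (35.1%) and 4888 (40.8%), and not in Shh-/- replicate 2. Of the regions called in a single library, the best ranked was a peak of WT replicate 1 in an intron of Nudt14 (29.9%).

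Dll1 encodes the ligand Delta-like 1 and lies on the minus strand of chr17:15367354-15376872. Its window held 4 and 1 peaks in WT and 1 and 2 in Shh-/-, and the genotypes overlapped. The region called in all 4 libraries, chr17:15395791-15396611, was the promoter of the neighboring gene Fam120b, with ranks of 14.3% and 53.9% in WT and 63.0% and 45.3% in Shh-/-. The promoter of Dll1 itself was called in WT replicate 1 at rank 17141 (43.9%) and in Shh-/- replicate 2 at rank 15320 (83.0%), and in neither of the other libraries. It was the only promoter of the 8 genes called in as few as 2 libraries. Neither call remained at equal list size. Of the 2 Dll1 regions called in a single library, the better ranked was an intergenic peak of WT replicate 1 (72.5%).

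Notch1, a receptor gene, is on the minus strand of chr2:26457903-26516663 and its window held 26 and 2 peaks in WT and 2 and 6 in Shh-/-. The genotypes overlapped, and 22 of the 29 regions were called in WT replicate 1 only. GENCODE gives Notch1 2 TSSs. The promoter window of the upstream TSS, position 26516663, had no peak in any library. At the TSS at position 26503822, the promoter region chr2:26503293-26504258 was called in WT at ranks 6444 (16.5%) and 7510 (62.7%) and in Shh-/- replicate 2 at rank 12483 (67.6%). Shh-/- replicate 1 lacked it, and no library had it at equal list size. The region called in all 4 libraries, chr2:26444822-26446333, was the promoter of Sec16a, the neighbor on the 3′ side, at ranks of 1.13% and 9.63% in WT and 6.89% and 3.51% in Shh-/-. Among regions called in a single library, the best ranked was a peak of WT replicate 1 after exon 2 of the longest transcript, in an exon of another transcript (35.1%).

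Notch2, the other receptor gene, is on the plus strand of chr3:98013527-98150361 and is the longest of the 8 genes. Its window held 6 and 2 peaks in WT and 0 and 2 in Shh-/-. The genotypes met at 2 peaks. Shh-/- replicate 1 had no peak in the window, as was so for 56.1% of protein-coding gene windows in that library. The promoter region, chr3:98013120-98014151, was called in WT at ranks 4892 (12.5%) and 4888 (40.8%) and in Shh-/- replicate 2 at rank 3581 (19.4%). All other Notch2 regions, 7 of 8, were called in 1 library each. The best ranked of them was a peak of WT replicate 1 in the intron after exon 1 (32.3%).

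Hes1, a bHLH repressor gene that responds directly to Notch in many tissues, is on the plus strand of chr16:30064384-30067796. Its window held 5 and 3 peaks in WT and 3 and 6 in Shh-/-, and it was the only gene of the 8 with a higher mean in Shh-/- (4.5 against 4 peaks, exact permutation test, two-sided, p = 1.0). The direction turned without WT replicate 2 (0.5 more peaks in WT) and without Shh-/- replicate 2 (1 more). The merged promoter region, chr16:30063184-30067351, covers nearly the whole gene and was called in all 4 libraries. Its best promoter peak ranked 3720 (9.52%) and 2600 (21.7%) in WT and 3984 (71.3%) and 2052 (11.1%) in Shh-/-. From the protein-coding TSS, negative meaning upstream, the summits of these peaks lay at -1054 and -1168 bp in WT and at -71 and -1077 bp in Shh-/-. The merged region thus joins separate sites. The peak of Shh-/- replicate 1 (chr16:30064899-30065321) overlapped no peak of WT replicate 2. In WT replicate 1 the peak over that site ranked 4177 (10.7%).

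Beyond the 3′ end of Hes1 were the 2 intergenic regions shown above. The near region, chr16:30068024-30068722, was called in all 4 libraries at ranks 5596 (14.3%) and 5578 (46.6%) in WT and 1566 (28.0%) and 3581 (19.4%) in Shh-/-. The far region, chr16:30069581-30071063, was called in WT replicate 1 at rank 6145 (15.7%) and in Shh-/- at ranks 3984 (71.3%) and 2695 (14.6%), and was missing from WT replicate 2. Both regions at equal list size were called in both Shh-/- libraries and in neither WT library. The limit is close for the near region, which ranked 5596 in WT replicate 1 and was among 879 peaks tied at the limit in WT replicate 2. With all peaks tied at the limit kept, a choice made after seeing the data, it was called in WT replicate 2 as well, and only the far region stayed Shh-specific. With ties ordered by position, the Hes1 window held 2 and 1 peaks in WT and 3 and 3 in Shh-/-, and the genotypes did not overlap. Of all protein-coding gene windows, 2.02% had more peaks in both Shh-/- than in either WT library at that size. The only Hes1 region called in a single library was an intergenic peak of Shh-/- replicate 2 (91.4%).

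Hey1 encodes a Hes-related repressor and lies on the minus strand of chr3:8663359-8667256. Its window held 5 and 2 peaks in WT and 1 and 1 in Shh-/- (exact permutation test, two-sided, p = 0.33, the smallest possible). It was the only gene of the 8 whose counts did not overlap between the genotypes with all peaks, and 8.16% of all protein-coding gene windows had more peaks in both WT than in either Shh-/- library. Each library had 1 Hey1 peak at equal list size. The promoter region, chr3:8666647-8667884, was called in all 4 libraries at ranks 1826 (4.67%) and 2101 (17.5%) in WT and 4510 (80.7%) and 592 (3.21%) in Shh-/-. As for Jag1 in percent of the list, the Shh-/- libraries were the highest and the lowest of the 4. The other 5 Hey1 regions were called in 1 library each, 4 of them in WT replicate 1, and the best ranked was an intergenic peak of that library (38.9%).

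Hey2, a second Hes-related gene, is on the minus strand of chr10:30832359-30842801 and its window held 4 and 2 peaks in WT and 1 and 3 in Shh-/-. The genotypes overlapped. The promoter region, chr10:30842366-30843461, was called in all 4 libraries at ranks 1143 (2.92%) and 1056 (8.82%) in WT and 2138 (38.3%) and 1691 (9.16%) in Shh-/-. Both WT libraries ranked it higher than either Shh-/- library, by little against Shh-/- replicate 2. Hey2 was the only 1 of the 4 genes called in every library with this order, which 22.8% of all promoters called in every library had. The order rests on giving ties the best rank. By the lowest rank among tied scores, WT replicate 2 was at 9.62% and Shh-/- replicate 2 at 9.61%, so it no longer held. At the promoter of the neighbor Ncoa7, chr10:30802446-30803946, a region was called at 22.9% and 27.5% in WT, at 23.3% in Shh-/- replicate 2 and not in the other Shh-/- library. When calls were matched by summits within 250 bp in place of merged regions, this region counted as WT-specific beside that of Jag1. The only Hey2 region called in a single library was an intergenic peak of WT replicate 1 (38.9%).

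Set side by side, the promoters of the 8 genes were called for 8 and 7 genes in WT and for 4 and 8 genes in Shh-/-. The shares of all protein-coding promoters called in these libraries were 60.8%, 39.5%, 17.5% and 51.5%. The genotypes overlapped, with a mean of 7.5 ± 0.707 promoters (SD, n = 2) in WT and 6 ± 2.83 (SD, n = 2) in Shh-/- (exact permutation test, two-sided, p = 1.0). The difference of 1.5 became -0.5 without Shh-/- replicate 1 and 3.5 without Shh-/- replicate 2, and it was 1 without WT replicate 1. With only peaks of a score of at least 50, the promoters called were 7 and 6 in WT and 2 and 5 in Shh-/-. The genotypes then did not overlap, and the difference was 3 (exact permutation test, two-sided, p = 0.33, the smallest this design allows). The separation rests on 6 promoters in WT replicate 2 against 5 in Shh-/- replicate 2. In the latter, the Notch1 promoter peak had a score of 46, just under the limit. At that score limit, 51.5% and 25.5% of all protein-coding promoters were called in WT and 14.1% and 44.4% in Shh-/-. Jag1, Hes1, Hey1 and Hey2 were called in all 4 libraries, as were 16.3% of all promoters. None of the 8 was called in both WT and no Shh-/- library, beside 1.51% of all promoters, or in both Shh-/- and no WT library, beside 0.00456%.

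The 4 promoters missing from Shh-/- replicate 1 were those of Jag2, Dll1, Notch1 and Notch2. In every library Jag1 ranked above the other ligands and the receptors. Against the effectors its place varied: it was behind all 3 in WT replicate 1 and behind Hey2 in WT replicate 2. It was tied with Hey2, ahead of Hes1 and Hey1, in Shh-/- replicate 1 and came second after Hey1 in Shh-/- replicate 2. The median rank of the called promoters of the 8 genes was 11.2% and 21.7% in WT and 54.8% and 15.3% in Shh-/-. Over all called promoters the medians were 17.4% and 31.1% in WT and 38.3% and 30.1% in Shh-/-. The median of these genes thus stood above that of all called promoters in 3 libraries and below it in Shh-/- replicate 1. Of the 8 promoters, 5 and 6 were called in WT and 4 and 5 in Shh-/- at equal list size, beside 25.7% and 25.6% of all protein-coding promoters in WT and 17.5% and 25.3% in Shh-/-.

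**Figure D3:**
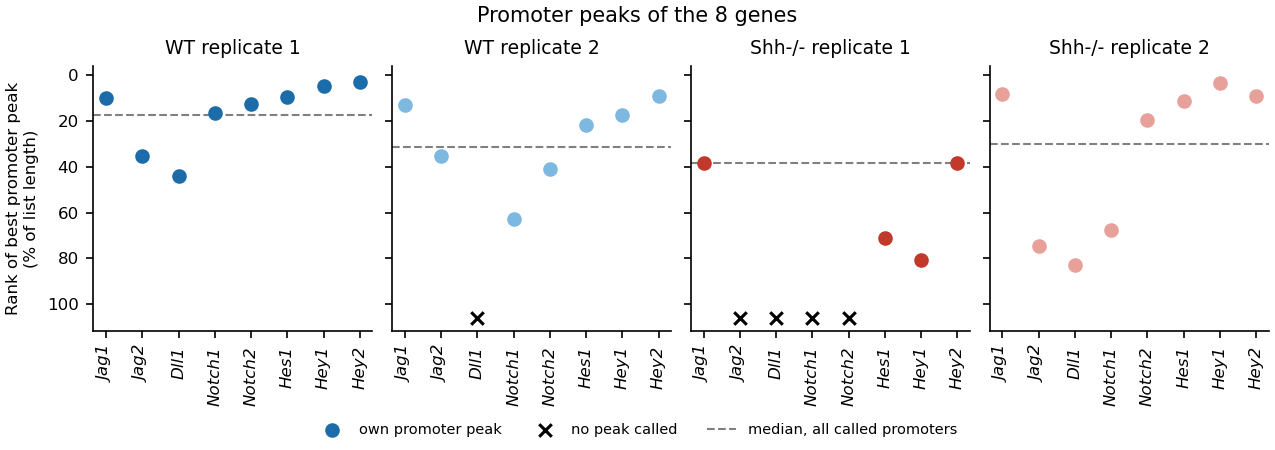
Rank of the best promoter peak of each gene (x axis) in percent of its own list (y axis, high scoring at the top), 1 panel per library; crosses mark promoters with no peak called and the dashed line is the median of all called protein-coding promoters. Jag1, Hes1, Hey1 and Hey2 lie above the line in 3 libraries. In Shh-/- replicate 1 they lie on or below it and the other 4 genes have no promoter peak.

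The promoters with the ranks most like those of Jag1 were Ints10, which encodes a subunit of the Integrator complex, Ston1, an endocytic adaptor gene, and Vamp4, a gene for a vesicle fusion protein. Likeness was the mean absolute difference in rank percent over the 4 libraries, among 3570 other genes called in all 4. It was 1.15 percentage points for Ints10, 1.22 for Ston1 and 1.32 for Vamp4. All 3 shared the score of Jag1 in Shh-/- replicate 1, where 280 peaks were tied.

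GC content moved with the calls of Shh-/- replicate 1 over the whole series. Of 8596 regions called in the other 3 libraries, 41.4% were also called in Shh-/- replicate 1, with a median GC content of 62.0% against 68.5% for those missing. In the 8 gene windows, 6 regions were missing from that library alone, including the promoters of Jag2, Notch1 and Notch2, and their GC content ran from 55.5% to 78.5%. The 7 regions called in all 4 libraries ran from 49.0% to 80.0%, which covers the same range, and the highest was the Hey1 promoter. The 2 regions missing from WT replicate 2 alone, in Jag1 and downstream of Hes1, had 52.0% and 57.5%, and regions missing from that library alone had a median of 49.0% over the series, beside 62.0% for those called. The part of GC content in these calls was not tested.

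Hes1 and Hey1 had no sequence in the RefSeq promoter table, so their 300-base promoters were not searched. Among the RefSeq promoters of the 6 genes found in the table, 300 bases each, only that of Hey2 held GTGGGAA. It held 2 matches, 1 on each strand, at bases 44 to 50 and 247 to 253 of the sequence shown. Of all 32851 RefSeq promoters, 6.38% held at least 1 match. The E-box CACGTG, to which bHLH repressors can bind, was in none of the 6 genes' promoters and in 7.15% of all. Matches to CACNAG, the N-box class, were in the promoters of Notch1, Notch2 and Dll1 and in 42.5% of all. Matches to TGGGTGGTC, the GLI consensus, with at most 1 mismatch were in 6.74% of all. None of the 6 genes' promoters held the GLI consensus. In the 200 bases around summits, 9 of the 104 regions in the gene windows held GTGGGAA (8.65%, beside 4.54% of all regions) and 7 the GLI consensus (6.73%, beside 5.61%). CACGTG was in 2 (1.92%, beside 4.87%) and CACNAG in 38 (36.5%, beside 34.6%). All motifs were searched on both strands. None of the 4 Jag1 and Hes1 sequences from outside promoters shown above held GTGGGAA or the GLI consensus.

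A list of 34 other genes of the pathway gave the wider setting. Their promoters were called for 33 and 24 genes in WT and for 8 and 28 genes in Shh-/-, beside the 60.8%, 39.5%, 17.5% and 51.5% of all promoters given above. At equal list size they were called for 11 and 11 genes in WT and 8 and 11 in Shh-/-, beside 25.7%, 25.6%, 17.5% and 25.3% of all promoters. The 8 genes of Shh-/- replicate 1 were called in all 4 libraries, and no gene of the list went uncalled in all of them. A single promoter was WT-specific, that of Dll3, a divergent Delta-like gene that acts in somite formation, at low ranks of 23486 (60.1%) and 8858 (74.0%), beside the 1.51% of all promoters that were WT-specific. None was Shh-specific. No promoter of the other 5 ligand genes, 2 receptor genes and 4 glycosyltransferase genes, which sugar-modify the receptors, was called in Shh-/- replicate 1. WT replicate 1 had all of these promoters, WT replicate 2 had 3 of the ligand, 1 of the receptor and 3 of the glycosyltransferase genes, and Shh-/- replicate 2 had the same numbers.

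The best ranked promoter of each role is given here by its rank in WT replicate 1. Numb, which encodes an inhibitor of Notch, was at 0.658% and 3.47% in WT and at 1.68% and 1.07% in Shh-/-. Adam10, the gene of the protease that makes the first cut, was at 3.15% and 11.7% in WT and at 43.3% and 4.92% in Shh-/-. Maml1, a coactivator gene, was at 4.38% and 24.1% in WT and at 17.3% and 9.16% in Shh-/-, while Rbpj was at 4.67%, 19.6%, 80.7% and 4.52% in the same order. Thus Rbpj, like Hey1, ranked high in Shh-/- replicate 2 and low in Shh-/- replicate 1. Hes6 was the best ranked of the other effectors, at 4.85% and 8.82% in WT and at 34.2% and 9.62% in Shh-/-. Dlk2, a ligand-like gene, was at 25.9% and 53.9% in WT and at 74.5% in Shh-/- replicate 2, and the receptor gene Notch3 was at 27.8% and 53.9% in WT and at 42.3% in that library. Lfng, a glycosyltransferase gene, was at 14.3% and 46.6% in WT and at 34.2% in Shh-/- replicate 2.

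**Figure D4:**
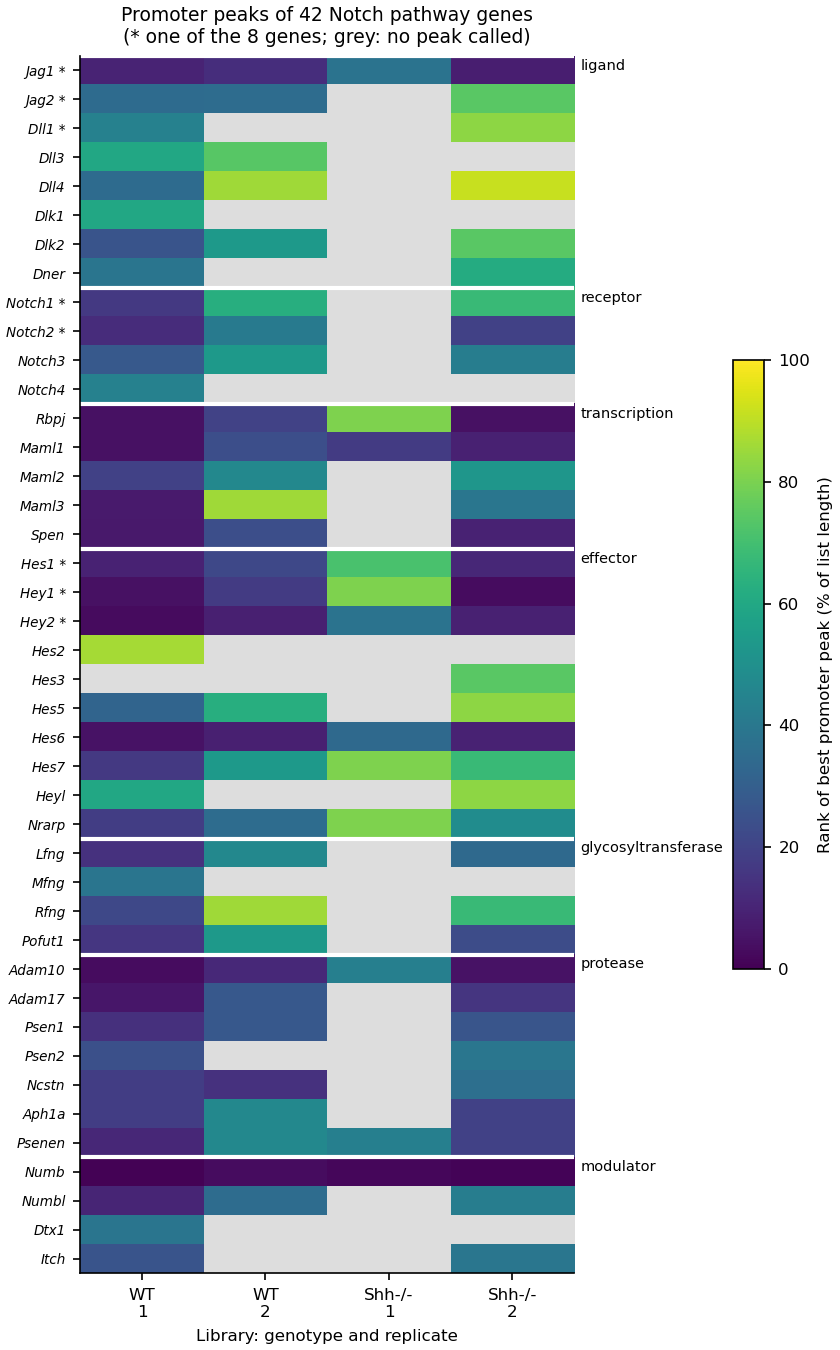
Rank of the best promoter peak in percent of the list (color, dark is high scoring) for the 8 genes, marked with an asterisk, and 34 other pathway genes (rows, by role) in the 4 libraries (columns); grey means that no peak was called. Shh-/- replicate 1 is grey for most rows, and apart from Jag1 no ligand, receptor or glycosyltransferase gene is called there.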

How the data were processed

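ATAC-seq peak lists of 4 libraries were used. The authors aligned paired reads and called peaks per library (Bowtie2 2.2.5 and MACS2 2.1.0, per the submitters' processing notes), with a q-value cutoff of 0.05, a 200 bp window and mm10 coordinates. Any shift of reads to the Tn5 cut is not given in the sources used here. The deposited score of each peak is the authors' own value of unstated scale. Its rank within a list was used, with ties given the best rank, except in the alternative with a score of at least 50. The methods name a single depth for the ATAC-seq libraries, and the lists give no reads per library, so no interval is given.

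Peaks that overlapped by 1 bp were merged over lists. Gene windows and promoters (2 kb before to 1 kb after a TSS of a protein-coding transcript) came from GENCODE M21, and sequence from GRCm38.p6. Python 3.11.15, numpy 2.4.6 and pandas 2.3.3 were used, and the functions were tested on simulated data. Libraries were grouped by genotype from their labels, and group means were compared by two-sided exact permutation tests. Each p-value is the share of relabelings of these 4 libraries that gave a difference at least as large. Each library is from its own embryo, so differences between embryos and between libraries cannot be told apart. The authors' test on read signal was not repeated, since the lists hold no read counts. The 8 genes and all gene lists were chosen with earlier results of these data known. By the naming rule, all 8 genes, every region called in 3 or 4 libraries or in one genotype only, the best ranked single-library region of each gene, and, of the 34 other pathway genes, those uncalled, genotype-specific or best ranked by role are named. Alternatives were equal list size, a score of at least 50, other windows and overlaps, left-out libraries and a replicate block.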

Additional observations from a re-analysis of the deposited data

How the results depend on the processing

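No difference between the genotypes passed a test, so only directions can change. Of 119 alternative values over 14 results, 80 kept their direction or count, 20 turned and 19 moved. The 80 include the replicate-block values, which equal the main differences by construction. The tally also includes the counts of genotype-specific regions with a library left out, which follow the looser definition given below. Values are WT minus Shh-/-.

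At equal list size, the difference in peaks in the 8 windows was -1.5, per 1000 peaks -0.268, for Jag1 -0.5, Dll1 -0.5 and Notch1 -0.5; there were 0 WT-specific and 2 Shh-specific regions. With ties at that limit kept, an alternative chosen after seeing the data, these were -2, -0.433, -0.5, -0.5 and -0.5, with 0 and 1 regions. A score of at least 50 gave -0.5 for Dll1, 11 peaks in the windows, 0.472 per 1000 peaks and 3 promoters called. The last 2 left no overlap between the genotypes (exact permutation p = 0.33 each). How often other gene sets show this at that limit was not computed. With 10 kb either side, the difference per 1000 peaks was -0.00748. Matching summits within 250 bp gave 2 WT-specific regions.

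Leaving out each library in turn gave 0.5 to 70.5 peaks in the windows, -0.0134 to 0.503 per 1000 peaks, -0.5 to 2.5 peaks for Jag1, -0.5 to 3.5 promoters called and -26.9 to 3.13 percentage points for the Jag1 promoter rank. WT-specific regions ran from 2 to 65 and Shh-specific regions from 0 to 6. These counts follow a looser definition, since the remaining library alone stands for the genotype that lost a library. The 65 came without WT replicate 2, and 64 regions were called in WT replicate 1 only. Shares of all regions under this definition were not computed. Among the other genes that turned, Dll1 ran from -0.5 to 2.5 peaks, Notch1 from -2 to 22 and Hes1 from -2 to 1. The cause of these turns was not tested.

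The replicate block, a permutation within replicate numbers, leaves the differences as they are (35.5 peaks, 0.245 per 1000, 1 for Jag1, 1.5 promoters and -11.9 points), and with 2 pairs it cannot give a p-value under 0.5. Same-numbered libraries correlated at 0.245 in their deviations from the group means over 44692 regions, but nothing in the labels says that a number marks a shared litter, so the libraries share only a number.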
